A study of Homo sapiens with 15 samples.

Results

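The cytosolic ribosomal protein genes encode the protein part of the ribosome that translates nuclear mRNAs. They were taken by symbol, as RPL or RPS followed by a digit together with RPLP0, RPLP1 and RPLP2, and without the RPS6K kinases. The symbols use no measured value, but the family was chosen by its FPKM and counts across all 5 groups of the study, so every comparison of its members is a description and no p is given for a member. Of 19684 genes in the expression tables, 90 matched. The matches were 76 core genes (46 of the large and 30 of the small subunit), 8 paralogues on autosomes (RPL3L, RPL7L1, RPL10L, RPL22L1, RPL26L1, RPL36AL, RPL39L and RPS27L), 3 readthrough genes, RPS19BP1, which encodes a protein that binds RPS19, and the Y-linked pair RPS4Y1 and RPS4Y2, for which no level is given. Values follow for the remaining 88.

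mRNA had been sequenced from the BC1-GFP human induced pluripotent stem cell (hiPSC) line, a single line labelled WT that carries a GFP reporter, and from its derivatives. The 15 libraries formed 5 groups of 3. They were undifferentiated hiPSCs on Matrigel, the neural retina (NR) layers of retinal organoids (ROs) at differentiation day 70 (D70-RO) and day 150 (D150-RO), and Müller glial cells cultured in serum from the NR of D150-ROs and taken on the fifth day of passage 1 (P1-iMGC) or passage 5 (P5-iMGC). Every organoid library pooled several ROs. The methods give 3 independent experiments per group, whereas the series description gives 2 for hiPSCs and ROs and names a second sequencing company. Which library went to which company was not stated, so a batch and a group cannot be told apart.

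A human ribosome holds a single copy of most of its proteins, so cells make their mRNAs in roughly balanced amounts. Most of these mRNAs begin with a 5′ terminal oligopyrimidine tract (5′ TOP), a C followed by a run of C and T, through which the kinase mTOR and the RNA-binding protein LARP1 control their translation and stability. Dividing and growing cells are known for high ribosomal protein mRNA, and some tissues replace a core protein by a paralogue, such as RPL3L in striated muscle and RPL10L and RPL39L in the testis.

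The libraries held 11349600 to 20398755 counts, the lowest in D70-RO replicate 2, and no core gene had fewer than 264 counts in any library. The pluripotency list (6 genes) summed to 3253 to 3449 FPKM (fragments scaled to transcript length and library total) in hiPSCs and to at most 84.6 elsewhere. The retinal neuron list (9 genes) summed to 472 to 859 FPKM in ROs and to at most 1.17 in iMGCs. Of 8 Müller markers, 5 in P1-iMGC and 6 in P5-iMGC had a mean of at least 1 FPKM. The 8 summed to 1340 to 1563 FPKM in D150-RO, 2235 to 2281 in P1-iMGC and 2865 to 2962 in P5-iMGC. In edgeR 2 of the 7 genes tested, VIM and APOE, were higher than in D150-RO at both passages, and 5 were lower. RLBP1, a defining Müller gene, was listed at 0 in all 3 P1-iMGC libraries and at no more than 0.09 FPKM in P5-iMGC, against 29.6 to 36.9 FPKM in D150-RO, while 7 mesenchymal markers summed to 4290 to 4807 FPKM in iMGCs and to 28.0 to 32.8 FPKM in D150-RO. The list of retinal pigment epithelium markers (5 genes) summed to 119.6 to 138 FPKM in hiPSC and 82.9 to 133 in D70-RO. It summed to 5.59 to 6.13 FPKM in D150-RO and 4.37 to 5.83 in iMGCs. These sums do not stand for the list, as only 1 of the 5 genes had a mean of at least 1 FPKM in hiPSC. From D70-RO to D150-RO PMEL had a log2 fold change of -6.40 (SE 0.26), while the median of the 3 genes tested was 0.25. From hiPSC to D150-RO PMEL was lower (-6.80), and BEST1 (2.63) and MITF (2.84) were higher. The groups keep the names of their labels here, and the part of this change of markers in the results below was not tested.

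The starts of 12 genes are printed because the 5′ TOP, where a gene has one, lies there, and because members with and without it can be compared. Each line runs from 15 bases before to 15 bases after a transcription start annotated by RefSeq on GRCh38.p14, 5′ to 3′, with the first 10 transcribed bases in capitals.
RPLP0, chr12:120201097-120201126, minus strand: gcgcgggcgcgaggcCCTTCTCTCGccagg
RPS6, chr9:19380222-19380251, minus strand: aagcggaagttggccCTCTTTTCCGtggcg
RPS24, chr10:78033848-78033877, plus strand: cggcgaatcgtggttCTCTTTTCCTccttg
RPS21, chr20:62387088-62387117, plus strand: ggtgactagctgcttCCTTTCTCTCtcgcg
RPL39, chrX:119791616-119791645, minus strand: ttcttccgccagcttCCCTCCTCTTccttt
RPL22, chr1:6199581-6199610, minus strand: tagttcgctcacctcCCTTTCTAACtccgc
RPL22L1, chr3:170870181-170870210, minus strand: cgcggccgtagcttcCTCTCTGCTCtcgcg
RPS27, chr1:153990747-153990776, plus strand: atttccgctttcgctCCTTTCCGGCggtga
RPS27L, chr15:63157463-63157492, minus strand: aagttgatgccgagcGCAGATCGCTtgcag
RPL26, chr17:8383179-8383208, minus strand: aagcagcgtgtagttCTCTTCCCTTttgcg
RPL26L1, chr5:172958714-172958743, plus strand: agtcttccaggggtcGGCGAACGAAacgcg
RPL7L1, chr6:42879601-42879630, plus strand: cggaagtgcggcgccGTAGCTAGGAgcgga

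A start with C at the first base and only C or T in the next 4 was annotated for 45 of the 61 core genes in the table (73.8%). It was annotated for 1404 of all 27305 symbols (5.14%) and for 7.07% of the genes outside the family that were tested in any comparison. Of 6 paralogues in the table only RPL22L1 had such a start, and RPL7L1, RPL10L, RPL26L1, RPL36AL and RPS27L did not. The 7 letters CCGGAAG, the core of an ETS factor site, were found on either strand within 250 bases upstream for 21 of the 61 core genes (34.4%), 2 of the 6 paralogues, 10.2% of all symbols and 17.8% of the tested genes outside the family. An annotated start can differ from the one used in these cells, and a match describes the letters only.

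The core mRNAs differed between groups by far more than between libraries of a group, with the highest level in D70-RO and the lowest in D150-RO. Their share of all counts was 7.06% ± 0.299 in hiPSC, 11.5% ± 0.417 in D70-RO, 2.28% ± 0.170 in D150-RO, 2.90% ± 0.126 in P1-iMGC and 2.82% ± 0.111 in P5-iMGC (mean ± SD, n = 3). The median FPKM of the 76 genes was 914, 877 and 1016 in the hiPSC libraries, 1902, 1852 and 1780.26 in D70-RO, and 315, 366 and 318 in D150-RO. It was 399, 448 and 449 in P1-iMGC and 429.5, 379 and 412 in P5-iMGC. The D70-RO, hiPSC and D150-RO libraries did not overlap with each other or with the iMGC libraries, and the P1 and P5 libraries overlapped. In bulk libraries fewer cells of a type and less RNA per cell cannot be told apart, and both measures are shares of a library rather than amounts per cell.

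**Figure D1:**
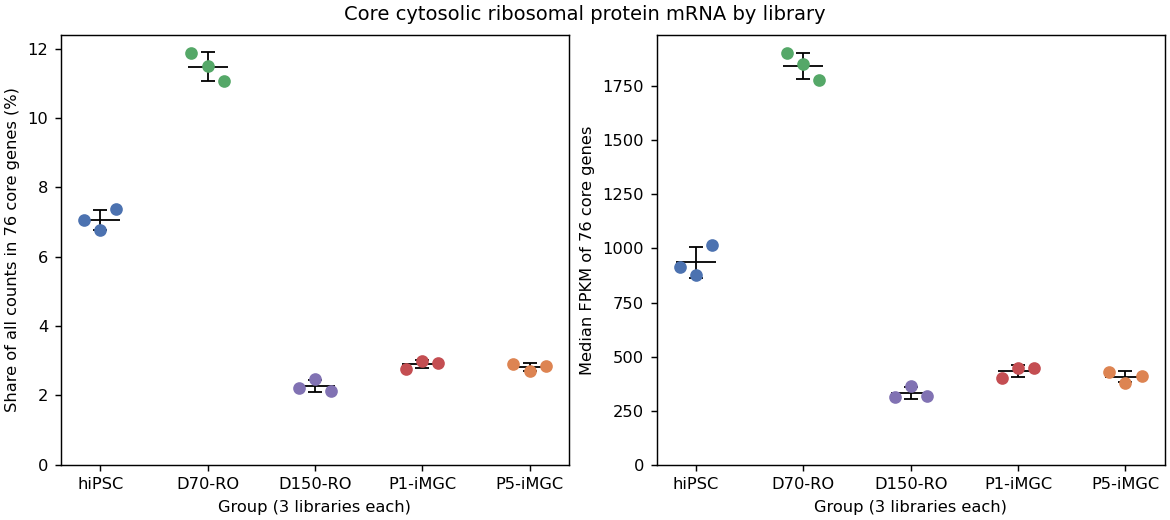
Left, the share of all counts (%) assigned to the 76 core ribosomal protein genes, and right, their median FPKM, in each of the 15 libraries (dots) with the group mean and SD (n = 3). The D70-RO libraries reached 11.1 to 11.9% of counts and the D150-RO libraries 2.14 to 2.47%, with both iMGC groups between 2.70 and 3.00%.

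From hiPSC to D70-RO, 71 of 76 core genes had a positive log2 fold change, with a median of 0.65 (1.57-fold) and a range of -0.25 to 1.62. The all-gene median was 0.02, and the median standard error of a core gene was 0.11. A gene was counted as called where edgeR gave an adjusted p below 0.05 and a 2-fold change, and these counts describe the fit beside the share of all genes and are no test of the family. By this count 21 core genes were called higher and 0 lower, while 22.5% of all 12954 genes tested were called higher and 21.1% lower. Over all 86 members tested 26 were called in either direction, against 43.5% of all genes. FPKM lay above all hiPSC libraries in all D70-RO libraries for 72 core genes, all but RPL8, RPL12, RPL28 and RPS2, while this held for 40.2% of all genes. The largest values were those of RPL39, which lines the peptide exit tunnel (1.62, SE 0.10), RPL7 (1.47, SE 0.12) and RPL23 (1.37, SE 0.10). The lowest were those of RPL8 (-0.25, SE 0.12), the stalk protein gene RPLP1 (-0.16, SE 0.10) and RPS2 (-0.08, SE 0.13).

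From D70-RO to D150-RO all 76 core genes had a lower level and all 76 were called, while 16.7% of 12855 genes were called lower. Of all 86 members 83 were called, against 33.3% of all genes in either direction. Their median log2 fold change was -2.62 (6.15-fold lower), with a range of -3.22 to -1.69. Among the most reduced were RPL13 (-3.22, SE 0.12) and RPS19, mutated in Diamond-Blackfan anaemia (-3.18, SE 0.09). The least reduced were RPS24 (-1.69, SE 0.13), RPL22 (-1.74, SE 0.09) and RPL14 (-1.75, SE 0.10). Relative to hiPSC, D150-RO had a median of -1.86 (3.62-fold lower) with 72 core genes called lower, while 29% of 13344 genes were called lower. Of 85 members 77 were called in either direction, against 58.8% of all genes. The 4 that fell short of 2-fold were RPS24, RPL22, RPL7 and RPL6. These 4 were the least reduced of the 76, and scaling on the core genes moves the core median to 0.043. That scaling therefore put them above 0 by construction, at 1.45, 1.32, 1.31 and 1.22, and adds no separate result. With the trend on transcript length removed RPS24 was higher in D150-RO by 1.01. FPKM was lower in D150-RO than in hiPSC without overlap for 74 of 76 core genes, with RPL7 and RPS24 as the exceptions, while this held for 36.9% of all genes. Against D70-RO it was lower without overlap for all 76, while this held for 30.4% of all genes.

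The iMGCs were compared with the D150-RO tissue from which they had been grown, which used the same 3 D150-RO libraries for both passages. All 76 core genes were higher at both passages with an adjusted p below 0.05 in edgeR, as were 42.2% and 41.6% of all genes at P1 and P5. The median log2 fold change was 1.01 (2.01-fold) at P1 and 1.03 (2.04-fold) at P5, with ranges of 0.21 to 1.89 and 0.23 to 1.82. At 2-fold, 39 core genes were called higher in P1-iMGC, while 20% of 12896 genes were, and 40 in P5-iMGC, while 20.8% of 12933 were. Of 85 members 45 and 46 were called in either direction, against 44.1% and 44.6% of all genes. Scaling on the core genes themselves sets their median to about 0 by construction, here to -0.012 and -0.023 with no core gene called. The increase as fitted is one relative to other genes, and this scaling cannot test it.

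**Figure D2:**
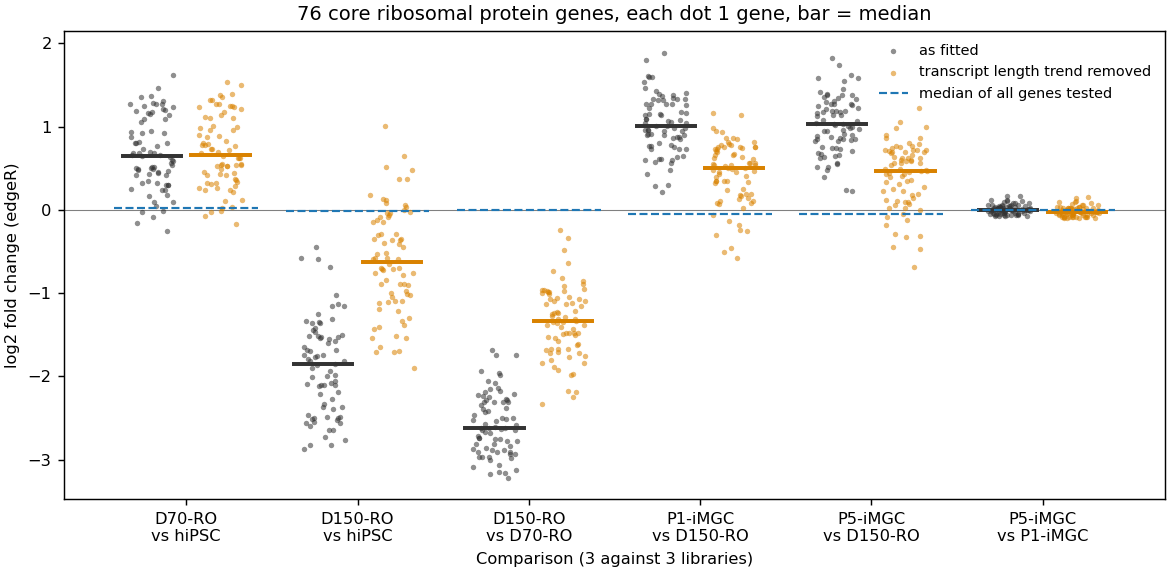
log2 fold change of each of the 76 core genes (dots, edgeR) in 6 comparisons of 3 against 3 libraries, as fitted (dark) and with the trend on transcript length removed (orange), with medians as bars and the median of all genes tested as a dashed line. The median was 0.65, -1.86, -2.62, 1.01, 1.03 and 0.00 as fitted and 0.66, -0.62, -1.34, 0.51, 0.47 and -0.02 with the trend removed, and it is set to about 0 when libraries are scaled on the core genes.

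RPS21, a small subunit protein gene, had 50.2, 60.9 and 45.5 FPKM in the D150-RO libraries, 101, 134 and 142 FPKM in P1-iMGC and 124, 103 and 123 FPKM in P5-iMGC. All 6 iMGC libraries lay above all 3 D150-RO libraries. Its log2 fold change was the highest of the core genes at P1 (1.89, SE 0.13) and at P5 (1.82, SE 0.10). RPS29 and RPS12 followed at P1 (1.80, SE 0.13, and 1.60, SE 0.09), and RPS29 and RPLP1 at P5 (1.74, SE 0.12, and 1.62, SE 0.08). RPS21 and RPS29 were among the shortest core transcripts, at 346 and 321 bases. With the trend on length removed RPS21 was at 0.86 and 0.76 and was not called, behind RPLP1 at 1.16 and 1.22 and RPS4X at 1.14 and 1.05. Among the smallest increases at both passages were those of RPS15 and RPL36A. RPL36A was higher by 0.30 at P1 (SE 0.11) and by 0.24 at P5 (SE 0.10) on the edgeR scale, yet its FPKM was 271, 367 and 260.4 in D150-RO and 211, 238 and 258 in P1-iMGC.

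On the FPKM scale the genes tested were lower in iMGCs as a whole, with a median difference of -0.59 at P1 and -0.65 at P5 in log2(FPKM + 1). The 10 most counted genes held 14.6 to 16.5% of counts in iMGCs and 4.71 to 5.09% in D150-RO, and mitochondrial genes held 6.92 to 8.41% and 3.87 to 4.38%. On the FPKM scale the core median difference was 0.37 at P1 and 0.35 at P5. FPKM in all 3 P1-iMGC libraries lay above all 3 D150-RO libraries for 50 core genes, while this held for 23% of all genes tested. It lay below for 4, among them RPL36A, RPS15 and RPS24, while 64.8% of all genes lay below. At P5 the counts were 45 above (22.5% of all genes) and the same 4 below (66%).

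Between the passages the core genes differed little. The median log2 fold change of P5-iMGC over P1-iMGC was 0.00, every core gene lay between -0.08 and 0.17, and the median standard error was 0.05. None of the 85 members tested was called by edgeR or by DESeq2, while 2.92% of 11366 genes were in edgeR. Of the core genes 38 had a positive and 38 a negative value. The largest positive values were those of RPL28 (0.17, SE 0.05) and RPS28 (0.17, SE 0.06).

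Ribosomal protein mRNAs are short, and transcript length moved with these comparisons. The core transcripts had lengths of 321 to 1526 bases (median 681), as implied by the counts and FPKM, and all 76 were shorter than the all-gene median of 2717 bases. The geometric mean of transcript length, weighted by counts, was 2206 to 2371 bases in D70-RO, 2353 to 2426 in hiPSC and 3068 to 3231 in D150-RO and iMGCs. Among genes outside the family, the shortest of 4 equal length classes had a median log2 fold change of -0.62 from D70-RO to D150-RO and the longest 0.55. From hiPSC to D150-RO these medians were -0.79 and 0.86, and from D150-RO to P1-iMGC they were 0.22 and -0.24. The core genes went in the direction of other short genes in these comparisons, and beyond their median.

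**Figure D3:**
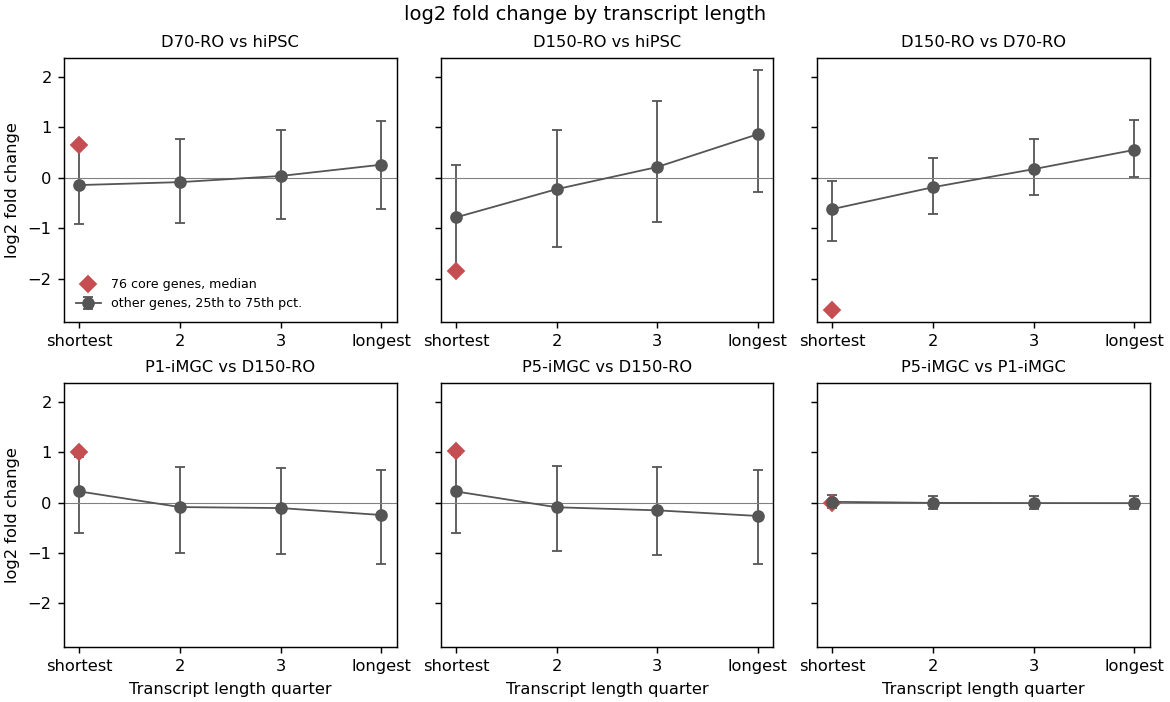
Median log2 fold change (points) with the 25th to 75th percentile (bars) of genes outside the family in 4 equal classes of transcript length, and the median of the 76 core genes (diamonds), for 6 comparisons. Across the classes the medians of other genes ran from -0.62 to 0.55 from D70-RO to D150-RO, where the core median was -2.62, and from -0.15 to 0.26 from hiPSC to D70-RO, where the core median was 0.65.

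When a smooth trend of the log ratio on length was removed, the core median from D70-RO to D150-RO was -1.34 with all 76 still negative and 59 called, while 12.4% of all genes were called lower. From hiPSC to D150-RO it was -0.62, with 64 negative and 12 positive values, and 22 core genes called lower against 27.4% of all genes. From hiPSC to D70-RO it was 0.66, close to the value without the correction. For the iMGCs it was 0.51 at P1 and 0.47 at P5, with 2 and 3 core genes called against 19.7% and 20.2% of all genes. Across the 76 core genes, which share their libraries, the Pearson correlation of length and log2 fold change lay between -0.22 and 0.29 in the 6 comparisons. Over all members 28 were called from hiPSC to D150-RO, 62 from D70-RO to D150-RO and 7 at each passage over D150-RO once the trend was removed, against 55.1%, 26.9%, 43.4% and 43.9% of all genes in either direction. Scaling on the core genes sets the core median to about 0 by construction. With it 4 members were called from hiPSC to D70-RO, 11 from hiPSC to D150-RO, 6 from D70-RO to D150-RO and 2 at each passage. Of all genes 50.6%, 77.3%, 92.9%, 61.2% and 63.2% were called in these comparisons. The part of transcript length in these differences was not tested.

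The fall from D70-RO to D150-RO was seen in each functional part of the ribosome, whereas the level of D70-RO against hiPSC varied by gene. RPLP0 anchors the stalk that recruits elongation factors. It had 3678, 3534 and 3774 FPKM in hiPSC, 4431, 4737 and 4187 in D70-RO, 839, 833 and 813 in D150-RO, 1044, 1109 and 1049 in P1-iMGC and 1130.5, 1076 and 1129 in P5-iMGC. The 3 D150-RO libraries were the lowest and those of D70-RO the highest, with no overlap. The log2 fold changes of the stalk partners RPLP1 and RPLP2 from D70-RO to D150-RO were -2.38 and -2.40, near the -2.68 of RPLP0, whereas from hiPSC to D70-RO the 3 were at -0.16, 0.29 and 0.16.

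RPL5 and RPL11 form the 5S particle with 5S rRNA, which also restrains MDM2. RPL5 had 695, 586 and 839 FPKM in hiPSC, 2052, 1754 and 1977 in D70-RO and 363, 384 and 336 in D150-RO. Its D70-RO level lay far above the others, and its log2 fold change of 1.30 from hiPSC to D70-RO exceeded that of RPL11, 0.93. In iMGCs RPL5 was higher than in D150-RO by 0.87 at both passages and RPL11 by 0.65 and 0.63.

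RPS2, at the mRNA entry of the small subunit, was the core gene with the highest FPKM in all 15 libraries, and RPS28, near the mRNA exit, was the one with the lowest. FPKM divides by length, and RPS28 had an implied length of 1326 bases against a core median of 681. Its place by FPKM is therefore not a place by counts. RPS2 had 5197, 5011 and 5166 FPKM in hiPSC, 5267, 5978 and 4660.4 in D70-RO, 1054, 1034 and 896 in D150-RO, and 1552 to 1654 in the 6 iMGC libraries. Its hiPSC and D70-RO libraries overlapped, unlike those of RPS23, the decoding site protein gene, which had 893 to 1024 FPKM in hiPSC and 2151 to 2848 in D70-RO. RPS6, the substrate of the S6 kinases, had 1007, 855 and 1249 FPKM in hiPSC, 1975, 1612 and 1804 in D70-RO, 459.8, 517 and 418 in D150-RO, and 682 to 745 in iMGCs. It was higher by 1.13 at P1 and 1.17 at P5 than in D150-RO, and RPS27A, made as a fusion to ubiquitin, by 1.46 and 1.38.

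The proportions among core genes also differed between groups. For each library the log2 FPKM of a core gene was set against the median of the 76, and the group means of this value ranged over a median of 0.67 log2 units per gene, with 9 genes over 1. The order of FPKM levels across the 76 genes had a Spearman correlation of 0.73 between hiPSC and P1-iMGC, 0.88 between D70-RO and D150-RO, 0.88 between D150-RO and P1-iMGC, and 0.996 between P1-iMGC and P5-iMGC, as a description across genes that share their libraries.

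RPS24, mutated in Diamond-Blackfan anaemia, moved most. It had 879.55, 737 and 1059 FPKM in hiPSC, 2760.3, 1949 and 2471 in D70-RO, 828, 988 and 801 in D150-RO, 709, 754 and 751 in P1-iMGC and 723, 705 and 782 in P5-iMGC. Its hiPSC and D150-RO libraries overlapped although the family median was 3.62-fold lower in D150-RO. Relative to the family its log2 level was -0.08 ± 0.16 in hiPSC, 0.36 ± 0.25 in D70-RO and 1.39 ± 0.05 in D150-RO (mean ± SD, n = 3). RPL7, RPL6 and RPL22 took the same direction, with relative levels 1.39, 1.18 and 1.11 higher in D150-RO than in hiPSC.

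RPS9 and RPL8 were relatively highest in hiPSC. RPL8, in the large subunit close to the peptidyl transferase centre, had 2167, 2168 and 2203 FPKM in hiPSC and 1898, 2229 and 1872 in D70-RO, so that it did not share the higher level of D70-RO. Its relative log2 level was 1.22 ± 0.10 in hiPSC and 0.11 ± 0.14 in D70-RO. RPL39 and RPL31 were relatively lowest in hiPSC and highest in iMGCs. RPL39 had 458, 470.1 and 450.25 FPKM in hiPSC, 1662, 1453 and 1543 in D70-RO, 241, 365 and 265 in D150-RO, 428, 462 and 517 in P1-iMGC and 458, 381 and 461 in P5-iMGC. Its D150-RO replicate 2 stood above the others of its group, as it did for RPS27 and RPL22, and for the family median.

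**Figure D4:**
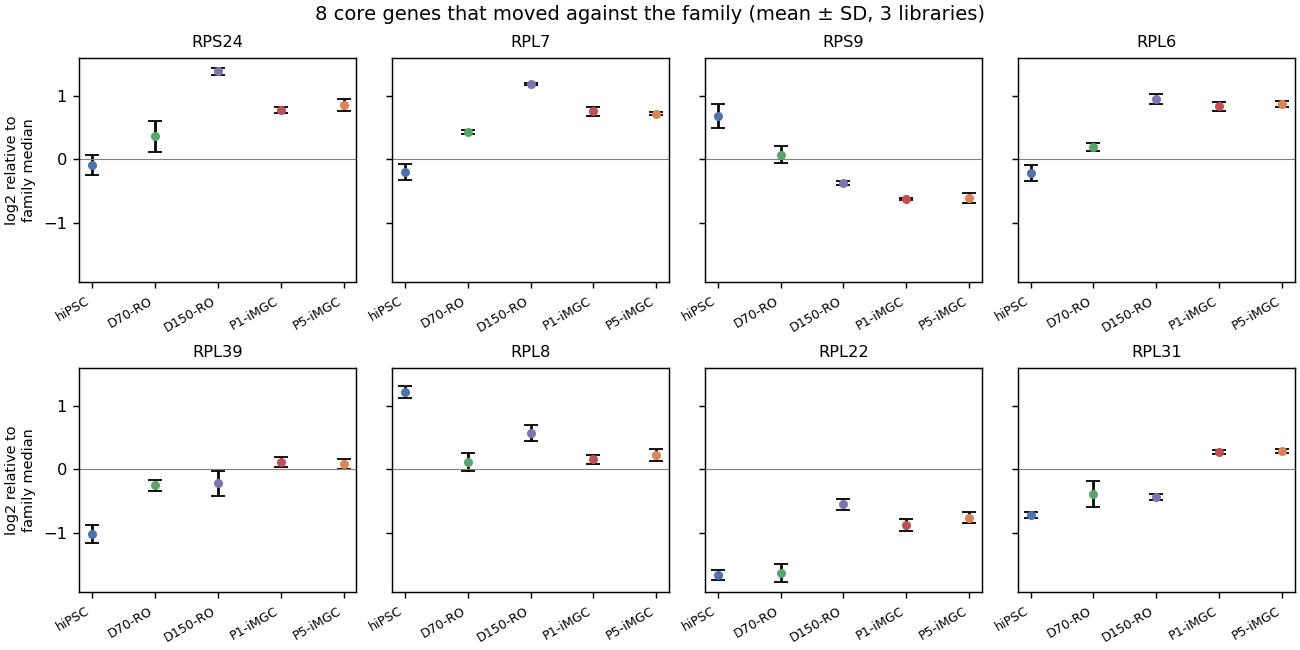
log2 FPKM relative to the median of the 76 core genes in the same library, as group mean ± SD (n = 3), for 8 core genes whose group means ranged over more than 1 log2 unit. RPS24 went from -0.08 in hiPSC to 1.39 in D150-RO, and RPS9 from 0.68 in hiPSC to -0.63 in P1-iMGC.

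The course of several paralogues differed from that of the core genes. RPL22L1 (ENSG00000163584), the paralogue of RPL22, an RNA-binding protein of the large subunit, had 62.6, 65.4 and 66.8 FPKM in hiPSC, 22.5, 13.5 and 20.3 in D70-RO, 8.06, 9.30 and 8.44 in D150-RO, 62.9, 78.2 and 78.8 in P1-iMGC and 50.3, 35.7 and 45.1 in P5-iMGC. Its level was thus lower in ROs than in hiPSC, whereas RPL22 was highest in D70-RO. In P1-iMGC it reached or passed the hiPSC level, and in P5-iMGC it lay between the hiPSC and D70-RO levels. RPL22L1 made up 17.997% ± 0.147 of the summed FPKM of the pair in hiPSC, 3.03% ± 0.600 in D70-RO, 3.65% ± 0.227 in D150-RO, 23.7% ± 0.709 in P1-iMGC and 15.4% ± 2.08 in P5-iMGC (mean ± SD, n = 3). These shares do not depend on the scaling of libraries.

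Against D150-RO, RPL22L1 was higher by 3.66 at P1 (SE 0.12) and by 2.97 at P5 (SE 0.13), and RPL22 by 0.57 (SE 0.07) and 0.67 (SE 0.06). When libraries were scaled on the core genes, RPL22L1 was still higher by 2.63 and 1.92 and RPL22 was at -0.45 and -0.38. From P1 to P5 the log2 fold change of RPL22L1 was -0.68 (SE 0.09), short of 2-fold, and its FPKM did not overlap between the passages. That of RPL22 was 0.11 (SE 0.05).

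RPS27L (ENSG00000185088) is a paralogue of RPS27 and a known p53 target gene. It had 25.7, 23.4 and 25.2 FPKM in hiPSC, 85.5, 68.8 and 72.3 in D70-RO, 25.3, 34.2 and 27.7 in D150-RO, 182, 184.5 and 189 in P1-iMGC and 180.3, 157 and 175 in P5-iMGC. The 6 iMGC libraries lay above every other library. RPS27 itself had 856, 972 and 774 FPKM in hiPSC, 246, 479.6 and 319 in D150-RO and 328 to 406 in iMGCs, where its libraries overlapped those of D150-RO. The share of RPS27L in the pair was 2.81% ± 0.408 in hiPSC, 3.47% ± 0.119 in D70-RO, 7.98% ± 1.33 in D150-RO, 33.4% ± 1.85 in P1-iMGC and 32.7% ± 0.665 in P5-iMGC. RPS27L was higher than in D150-RO by 3.01 at P1 (SE 0.07) and by 2.96 at P5 (SE 0.08), and by 1.99 and 1.92 with scaling on the core genes. RPS27 was higher by 0.73 (SE 0.16) and 0.71 (SE 0.15), and was at -0.28 and -0.32 with that scaling.

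RPL39L (ENSG00000163923), known from pluripotent and male germ cells, had 39.2, 47.5 and 36.9 FPKM in hiPSC, 5.72, 4.95 and 5.33 in D70-RO, 0.86, 0.97 and 0.83 in D150-RO, 1.57, 1.76 and 1.96 in P1-iMGC and 1.65, 1.54 and 1.34 in P5-iMGC. Every hiPSC library was above all others, and the log2 fold change from hiPSC was -3.09 in D70-RO and -5.89 in D150-RO. Its share of the pair with RPL39 was 8.21% ± 0.841 in hiPSC and between 0.311% and 0.374% on average in the other groups. In iMGCs its log2 fold change over D150-RO was 1.64 (SE 0.33) at P1 and 1.46 (SE 0.33) at P5, on 32.3 counts summed over the 3 D150-RO libraries.

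**Figure D5:**
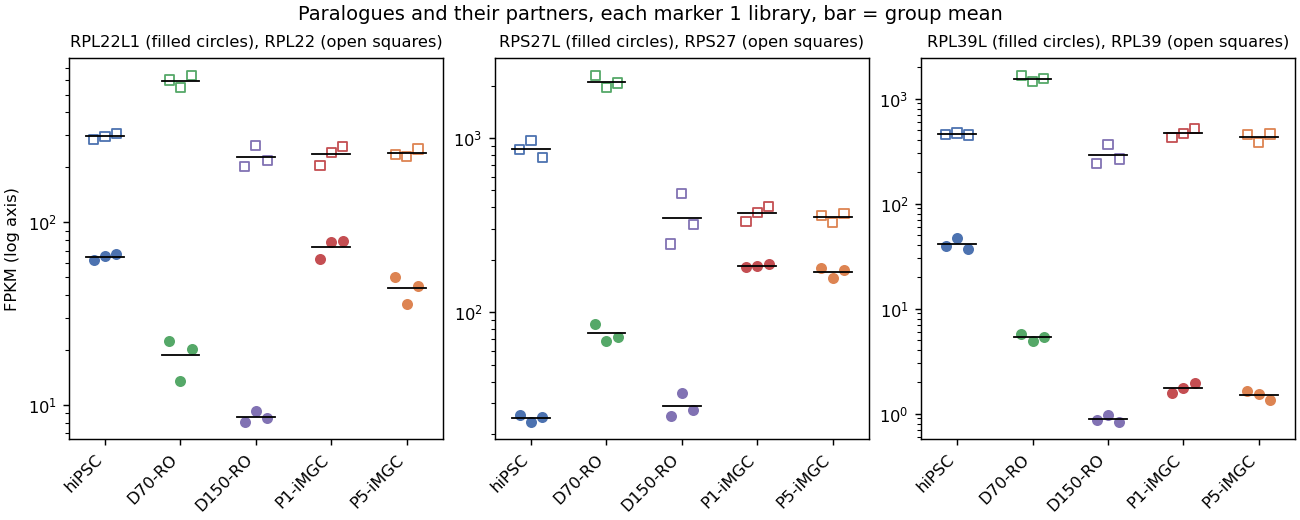
FPKM on a log axis of 3 paralogues (filled circles) and their partners (open squares) in each library, with group means as bars. RPL22L1 and RPS27L are at 35.7 to 78.8 and 157 to 189 FPKM in iMGCs, where RPL22 and RPS27 are at 205 to 261 and 328 to 406, and RPL39L is above 36 FPKM only in hiPSC.

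RPL26L1 had 22.4 to 26.6 FPKM in hiPSC, 29.7 to 45.4 in D70-RO, 21.5 to 25.9 in D150-RO and 30.3 to 36.2 in iMGCs. It was higher than in D150-RO by 1.13 at P1 (SE 0.10) and 1.03 at P5 (SE 0.10), beside core medians of 1.01 and 1.03, and with scaling on the core genes it was at 0.098 at P1 and -0.018 at P5. RPL36AL had 47.0 to 83.1 FPKM over all libraries, and its share of the pair with RPL36A was 11.3% in hiPSC, 5.57% in D70-RO, 15.2% in D150-RO, 21.2% in P1-iMGC and 21.8% in P5-iMGC. Its log2 fold change over D150-RO was 0.89 at both passages on the edgeR scale and -0.13 and -0.16 with scaling on the core genes. RPL7L1, a nucleolar protein gene, had 48.9 to 65.2 FPKM in hiPSC and ROs and 34.0 to 41.2 in iMGCs, without overlap. On the edgeR scale it was higher in iMGCs than in D150-RO (0.56 at P1 and 0.42 at P5), on the FPKM scale lower (-0.62 and -0.80).

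RPL3L, the muscle paralogue, did not exceed 0.18 FPKM in any library against 799 to 3703 for RPL3, and RPL10L was listed at 0 throughout. Reads that similar copies share, as may occur for RPL36A and RPL36AL or RPL39 and RPL39L, are divided by the authors' estimation. The split within such pairs is therefore uncertain, although the counts of RPL39 were whole numbers in every library. Counts were fractional in at least 1 library for 14 core genes, and in all 15 for RPL10, RPL17, RPL36A and RPS10, 3 of which share exons with the readthrough genes RPL17-C18orf32, RPL36A-HNRNPH2 and RPS10-NUDT3. These 3 had at most 7.55 FPKM in any library. RPS19BP1 had 51.0 to 60.5 FPKM in hiPSC, 53.0 to 56.0 in D70-RO, 18.2 to 20.5 in D150-RO and 16.6 to 21.6 in iMGCs, without the higher level of the core genes in D70-RO.

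Other gene lists of translation and ribosome assembly are given beside the share of all genes called, which was 16.7% lower from D70-RO to D150-RO and 20% higher in P1-iMGC over D150-RO. The genes given with an adjusted p were picked from the ends of the called genes of a list. That p describes the fit and is no independent test. Of 4 ribosomal components that the symbol rule misses, among them RPSA, FAU and RACK1, all 4 were called lower from D70-RO to D150-RO, with FAU at -2.72 (SE 0.09) and RPSA at -2.67 (SE 0.11), and RACK1 rose in P1-iMGC by 1.13 (SE 0.05, edgeR adjusted p = 4.73e-12). Of 17 translation genes known to carry a 5′ TOP, 15 were called lower from D70-RO to D150-RO and none higher, with a median of -2.04 and EIF3L at -2.50 (SE 0.13) and the elongation factor gene EEF2 at -2.42 (SE 0.14). From hiPSC to D70-RO the 17 had a median of 0.25, with 1 called higher and 0 lower. The 4 ribosomal components had a median of 0.16 there, with 0 called. The core median was 0.65, and of all genes 22.5% were called higher and 21.1% lower. In both P1 and P5-iMGC 7 of the 17 were called higher and none lower, while 20% and 20.8% of all genes were called higher. PABPC1, the poly(A)-binding protein gene, rose by 1.93 (SE 0.05, edgeR adjusted p = 3.21e-15) at P1 and 2.02 (SE 0.05, edgeR adjusted p = 2.79e-15) at P5, and TPT1 by 1.67 (SE 0.05) and 1.80 (SE 0.06).

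Of 16 translation factor genes outside the 5′ TOP list, 1 was called higher and 4 lower from D70-RO to D150-RO, with a median of -0.03. Their median transcript length was 2762 bases, against 1492 for the 5′ TOP list. The part of length in the difference between these lists was not tested. EEF1A2, the neuronal and muscle form of the elongation factor, was at -1.98 (SE 0.14) and EIF5B at 1.70 (SE 0.16). In P1-iMGC 5 rose, among them EIF6, which keeps ribosomal subunits apart (2.13, SE 0.06, edgeR adjusted p = 2.21e-14), and EEF1A2 fell by 1.17 (SE 0.08, edgeR adjusted p = 1.41e-09).

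Genes that build ribosomes were compared in the same way. Of 30 ribosome biogenesis genes, 12 were called lower and 3 higher in D70-RO than in hiPSC, with a median of -0.83, where the core median was 0.65. Of all genes 21.1% were called lower and 22.5% higher there. From hiPSC to D150-RO 15 of the 30 were called lower and 2 higher, while 29% of all genes were called lower. Their median was -0.92 beside the core median of -1.86. The difference between the lists was not tested. From D70-RO to D150-RO 3 were called lower and 1 higher, with a median of 0.03, the lowest being FBL, the rRNA methyltransferase fibrillarin, at -2.12 (SE 0.13). Against D150-RO, P1-iMGC had 2 called higher and 1 lower, NOP10 rising by 2.16 (SE 0.12, edgeR adjusted p = 9.25e-11). Of 78 mitochondrial ribosomal protein genes, 25 were called lower and 1 higher from D70-RO to D150-RO, with a median of -0.76, and 12 higher and 1 lower in P1-iMGC over D150-RO, with a median of 0.38. The 12 of 78 fell below the share of all genes called higher there. Their median transcript length was 1252 bases. Of 16 genes of mTOR, LARP1 and MYC control, 2 were called higher and 1 lower in P1-iMGC over D150-RO, with a median of 0.07. MYC had 40.2 to 53.7 FPKM in hiPSC, 2.28 to 7.33 in ROs and 37.3 to 46.3 in iMGCs, rising over D150-RO by 3.51 at P1 (SE 0.07, edgeR adjusted p = 1.94e-16). MYCN had 21.2 to 25.4 FPKM in D150-RO and at most 0.05 in iMGCs. MTOR was called higher and EIF4EBP1 lower from D70-RO to D150-RO, by 1.15 (SE 0.12) and -1.72 (SE 0.14). The 8 proliferation genes summed to 694 to 786 FPKM in hiPSC, 213 to 283 in D70-RO, 92.2 to 117 in D150-RO and 71.5 to 91.55 in iMGCs, so that they were not highest where the core genes were, and their part in these results was not tested.

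Over the 15 libraries, log2(FPKM + 1) of each core gene had a Pearson correlation with the core mean of 0.83 to 0.998 (median 0.97), lowest for RPS24. It was -0.19 for RPS27L, 0.07 for RPL22L1, 0.26 for RPL26L1, 0.34 for RPL7L1, 0.65 for RPL39L and 0.79 for RPL36AL, and among the readthrough genes 0.012 for RPL17-C18orf32. Outside the family the genes most like the core mean, of 13828 compared, were TMEM98 (0.988), EIF3L, a subunit of the eIF3 initiation complex (0.987), and BTF3 (0.986). TMEM98 had 63.0 to 67.6 FPKM in hiPSC, 105 to 111 in D70-RO, 23.7 to 29.8 in D150-RO and 29.4 to 31.7 in iMGCs. These correlations rest on 5 groups whose libraries share depth and length composition, and are given as a description. Genes outside the family with an annotated pyrimidine start (733 tested) had a median log2 fold change of -0.31 from D70-RO to D150-RO, and those with another start (9402) a median of 0.02. Transcript length was not compared between these sets.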

How the data were processed

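mRNA libraries from 15 samples were analysed. HISAT2, StringTie, RSEM and DESeq2 are named in the submitters' processing notes, without versions, and the genome build and annotation are not given in the sources used here. The deposited tables hold expected counts estimated by the authors with RSEM, and FPKM values that the authors normalised by transcript length and by the total of each library. Counts of D150-RO in 2 tables differed by at most 0.5 and were used once, and 6 columns that name no passage were not used.

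Expected counts were rounded and tested with edgeR 4.0.16 (quasi-likelihood, TMM, R 4.3.3) for 2 groups at a time, keeping genes that reached an FPKM of 1 in 3 or more of the libraries compared, with Benjamini-Hochberg adjustment over all genes. Counts and FPKM were compared across tables. FPKM of D150-RO was the same in the 2 tables that hold it (largest difference 0). The length implied by count, FPKM and library total did not vary between libraries for RPL10A (716 bases) and RPS4X (1526 bases). No scaling particular to a table was seen. With 3 against 3 libraries no exact permutation test can pass 0.05. The p-values measure the spread between these samples. Alternatives used DESeq2 1.42.0, limma 3.58.1 on log2(FPKM + pseudocount of 1 or 0.1), other scalings, a loess trend on transcript length and each library left out. The model was tested on simulated data, where 99.5% of 200 genes changed 4-fold were recovered from D70-RO to D150-RO (12855 genes), with 6 false calls. As many genes were changed up as down, without a length trend or a shared shift of a family. The simulation therefore cannot speak to scaling or length in these comparisons. Symbols came from GENCODE 29, which held all 19684 identifiers. The members and gene lists were chosen with earlier results of these data known. Fits of members are given as a description, and p-values only for genes of other lists. These genes were picked from the called genes of lists chosen in that way, so their p-values are no independent test. Any member could be named, with values per library for paralogues, their partners, genes of fixed roles and the 3 highest and 3 lowest core genes of a comparison, and other genes only from fixed lists. All listed genes were present in the tables. Some genes are not reported here.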

Additional observations from a re-analysis of the deposited data

How the results depend on the processing

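Outside the comparison of passages, where it was near 0, the core median kept its direction under every alternative except scaling on the core genes, and the number of members called moved most with that scaling, with the length trend in the comparisons with D150-RO, and with the FPKM scale in the iMGC ones. Of 663 gene values under an alternative, 583 kept direction and call, 48 lost and 2 gained the call, and 30 changed sign. From hiPSC to D70-RO 26 members were called, 16 in a test against a 2-fold change and 4 with scaling on the core genes, and the core median of 0.65 became 0.80 on both log2(FPKM + 1) and log2(FPKM + 0.1) and 0.0097 with scaling on the core genes. From hiPSC to D150-RO 77 were called, 28 without the length trend and 11 scaled on the core genes, and the median of -1.86 became -1.52 on both FPKM scales, -0.62 without the length trend and 0.043 scaled on the core genes. From D70-RO to D150-RO 83 were called and 6 when scaled on the core genes, and the median of -2.62 became -2.41 on both FPKM scales, -1.34 without the length trend and -0.0061 scaled on the core genes. For P1-iMGC over D150-RO 45 were called, 5 and 6 on log2(FPKM + 1) and log2(FPKM + 0.1), 7 without the length trend and 2 scaled on the core genes, and the median of 1.01 became 0.89 with upper-quartile scaling, 0.37 on both FPKM scales, 0.51 without the length trend and -0.012 scaled on the core genes. For P5-iMGC over D150-RO 46 were called, 5 and 6 on the FPKM scales, 7 without the length trend and 2 scaled on the core genes, and the median of 1.03 became 0.92 with upper-quartile scaling, 0.35 on both FPKM scales, 0.47 without the length trend and -0.023 scaled on the core genes. The last scaling sets the core median to 0 by construction and moved the median of all genes to -0.62, 1.89, 2.60, -1.07 and -1.10, and upper-quartile scaling moved it by 0.12 at most from 0 in the RO comparisons and to -0.16 in the iMGC ones.

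Among the paralogue pairs the sign changed as follows. From hiPSC to D150-RO, RPS27L was at 0.21 and 0.22 on the FPKM scales, 1.01 without the length trend and 1.74 scaled on the core genes, RPL22 at 0.18 and 1.32, RPS27 at 0.052 and 0.20 and RPL39 at 0.65 and 0.87 under the last 2. From D70-RO to D150-RO, RPL22L1 was at 0.080 without the length trend, and RPL22, RPL22L1 and RPS27L at 0.87, 1.28 and 1.06 scaled on the core genes. Over D150-RO, RPL7L1 was at -0.62, -0.63 and -0.47 at P1 and -0.80, -0.82 and -0.64 at P5 on the 2 FPKM scales and the core scale. RPS27 was at -0.25 and -0.28 at P1 and -0.32 and -0.32 at P5 without the length trend and on the core scale, and on the core scale RPL22 was at -0.45 and -0.38, RPL36AL at -0.13 and -0.16, and RPL26L1 at -0.018 at P5.

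With each library left out in turn, 24 to 26 members were called from hiPSC to D70-RO, 75 to 77 from hiPSC to D150-RO, 83 in each case from D70-RO to D150-RO, 42 to 52 for P1-iMGC and 42 to 54 for P5-iMGC over D150-RO, and 0 between passages. The core medians were 0.60 to 0.69, -1.95 to -1.79, -2.68 to -2.55, 0.96 to 1.11, 0.98 to 1.11 and -0.05 to 0.04 in that order. RPS27L between passages lay between -0.069 and 0.0023, the latter without P5-iMGC replicate 2.

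The shared replicate numbers carried no stated pairing, and same-numbered libraries correlated in their deviations by -0.07 to 0.34, not all above 0.1. With the replicate number as a block 26, 77, 83, 46, 46 and 0 members were called in the 6 comparisons, close to the counts without it.

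Single libraries decided a few calls at the 2-fold limit. RPL39 from hiPSC to D150-RO was not called without hiPSC replicate 2, D150-RO replicate 1 or D150-RO replicate 3. RPL26L1 at P5 was not called without D150-RO replicate 1 or P5-iMGC replicate 1, and RPS27 reached 1.02 at P1 and 1.01 at P5, and was called, without D150-RO replicate 2. The directions of these 3 held.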
